A study of Homo sapiens with 2 samples.

Results

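The SOX2 locus lies on the long arm of chromosome 3, and its chromatin interactions were examined in KYSE180, an established cell line of esophageal squamous cell carcinoma (ESCC). A loop is a pair of 2 kb bins (anchors) joined by at least 1 read pair (contact). The loops of the locus were those with at least 1 anchor starting between positions 180500000 and 182000000 of chromosome 3, a window of 1.5 Mb on hg19. By this rule, 164 of the 31950 loops of the list belonged to the locus, namely 0.513% (95% Wilson interval 0.441 to 0.598%), and they rested on 173 contacts. SOX2 occupies positions 181429712 to 181432224 on the plus strand, inside SOX2-OT, so downstream of its 5′ end means higher positions.

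H3K27ac HiChIP was performed, in which DNA ends held close together in the nucleus are ligated and the fragments on chromatin with this acetylated histone mark are pulled down. Thus, a contact is taken to report that 2 stretches of active chromatin were near each other, which was not tested for any single contact. The paper describes the loops it called as associated with the transcription factor p63. The list therefore need not hold every contact of active chromatin, and the positions of p63 were not examined here. The cells were grown in RPMI-1640 with serum and transfected with a non-targeting siRNA, which has no intended target. The 2 libraries, labelled 1 and 2, share this 1 condition and 1 list of loops, so no value has a replicate spread and no test between samples was possible. Intervals are 95% intervals (Wilson for shares, exact Poisson for counts) and cover counting error only. They treat loops and anchors as independent, although loops share anchors, so they may be too narrow and are not tests. Where a count was 0, the limit given in the text is 3 counts, or 3 of the total for a share.

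SOX2 encodes a transcription factor that binds DNA through an HMG box. It is known for keeping stem cells pluripotent, for the development of the foregut and the esophagus, and as a lineage factor of squamous carcinomas alongside ΔNp63. SOX2-OT is a long noncoding RNA gene that is transcribed in the same direction and holds SOX2 within one of its introns. Genes such as SOX2 are often served by enhancers that lie far away, and a looped contact is one way in which such elements come near a promoter. RNA was not measured in these libraries, so the loops describe the chromatin and not the expression of SOX2.

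The sequence just before the 5′ end of SOX2 is shown because this promoter is the point from which all distances below are counted. It was taken from RefSeq and covers chr3:181711675-181711924 on the plus strand of GRCh38.p14, a build whose positions differ from those of the list. Capitals mark the matches to 4 motifs that were searched on both strands.

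SOX2 promoter: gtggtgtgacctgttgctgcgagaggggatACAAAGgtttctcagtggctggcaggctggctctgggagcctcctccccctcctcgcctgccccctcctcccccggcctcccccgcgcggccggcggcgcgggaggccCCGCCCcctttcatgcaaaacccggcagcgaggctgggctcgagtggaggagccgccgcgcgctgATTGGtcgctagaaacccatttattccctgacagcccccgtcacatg

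Of these 250 bases, 68.8% were G or C, against a median of 58.0% over all 35116 RefSeq promoters of this length. The CCAAT box (CCAAT, found as ATTGG on the plus strand) matched once, 47 bases before the 5′ end, and 32.0% of all promoters held it. The GC box (GGGCGG, found as CCGCCC) matched once, 112 bases before the 5′ end, against 42.6% of promoters. The core letters of SOX binding sites (ACAAAG) matched once, 220 bases before it, against 13.7%. The TATA box (TATAAA) had no match in this stretch, and 10.7% of promoters held it. The matches did not overlap each other, and they are descriptions of the letters and not binding sites.

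The SOX2 promoter was an anchor with many loops. The bins that come within 1 kb of the start of the gene were counted as promoter, namely 181428001 to 181430000, which holds the 5′ end, and 181430001 to 181432000, which holds most of the gene. These bins had 10 loops each, together 20 (exact Poisson interval 12.2 to 30.9) with 21 contacts. Only 0.153% of the 57529 windows of 2 adjacent bins with a loop had as many in the whole list, and 11 of the 4703 such windows of chromosome 3 did. The bin before the promoter had 9 loops and the bin with the 3′ end had 6. The count therefore depended on the width taken, as 38 loops lay within 5 kb of the 5′ end and 10 at the bin of the 5′ end alone.

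The loops of the promoter pointed downstream. Of the 20, 18 ended downstream and 2 upstream, 12 and 98 kb away, measured from the start of the bin with the 5′ end. Downstream, 1 ended up to 100 kb away, 10 between 100 and 300 kb, 5 between 300 kb and 1 Mb, and 2 beyond 1 Mb, at 1574 and 1608 kb. The median distance of the downstream partners was 238 kb. Anchors were unevenly spread in the same direction, with 9 anchors within 250 kb upstream of the promoter and 46 within 250 kb downstream. Within 500 kb there were 10 upstream and 60 downstream.

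The promoter bins did not have a partner in common. The bin of the 5′ end was joined to bins 104, 132, 164, 246, 502, 800 and 900 kb downstream and to the pair beyond 1 Mb. The neighbouring bin was joined to bins 72, 128, 142, 176, 198, 230, 276, 534 and 796 kb downstream. These partners were close to each other without being the same bins, as at 128 and 132 kb or at 796 and 800 kb. The partner with the most loops of its own, 176 kb downstream, had 13, and the one at 128 kb had 9. Among themselves, the partners were joined by 3 loops for 188 pairs of partner bins at least 10 kb apart (1.6%). Among all anchors of the window, 115 of 3042 such pairs were joined (3.78%). The 188 include pairs with the 5 partners beyond the window, so these shares are of unlike sets and cannot be compared.

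All but 1 of the loops of the promoter rested on a single contact. The exception joined the bin from 181430001 to 181432000 with the bin from 181962001 to 181964000, 532 kb apart, with 2 contacts. For a single contact the exact Poisson interval runs from 0.0253 to 5.57, so such loops cannot be ranked by strength.

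**Figure D1:**
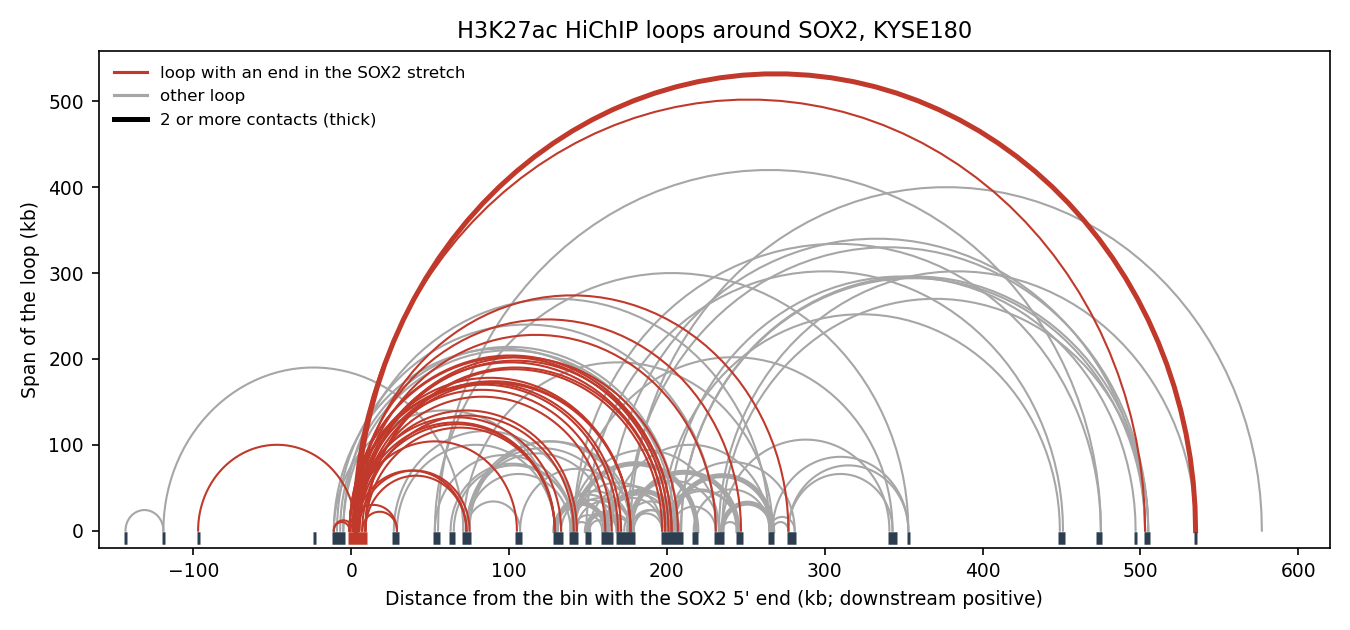
Loops around SOX2 as arcs against the distance from the bin with its 5′ end (kb), with the height of an arc giving the span of the loop (kb). Blocks below mark stretches of touching anchors, red marks the stretch at SOX2 and its loops, and thick arcs have 2 or more contacts. Most red arcs run downstream into the stretches between 26 and 282 kb.

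The anchors around SOX2 formed an unbroken stretch. Touching anchors were merged, which gave 32 stretches in the window with a median length of 4 kb. The stretch at SOX2 ran from 181426001 to 181438000, covering the whole gene and both sides of it. At 12 kb it was among the longest of the list, since 0.46% of all 22628 stretches were as long or longer. It had 42 loops, 25.6% (19.5 to 32.8%) of the loops of the locus, and joined 22 other stretches, against a median of 2 in the list. Only 0.172% of stretches had as many partners, and 4 stretches of chromosome 3 had more. Its 6 bins had 9, 10, 10, 6, 3 and 4 loops from the lowest position to the highest.

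The partners of the SOX2 stretch lay mostly in a series of stretches downstream. Of the 23 stretches of the window downstream of SOX2, 13 were joined to it, compared with 2 of the 8 upstream. No intervals were computed for these shares. Upstream and downstream stretches also differed in length and in distance from SOX2, and the part of this was not tested. The 16 stretches between 26 and 282 kb downstream covered 96 kb in all, and 11 of them took 29 of the 42 loops. This series ends where the next stretch lies at least 50 kb away, a limit set after the loops had been seen, so its counts are a description.

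The stretch that took most loops from SOX2 lay 196 to 210 kb downstream (181624001 to 181638000). It took 7 loops, which came from 4 of the 6 bins of the SOX2 stretch. At 14 kb it was also the longest stretch of the window, with 33 loops to 17 other stretches. The stretch at 168 to 180 kb (181596001 to 181608000, 12 kb) took 5 loops from 3 bins and had 31 loops to 17 stretches. The stretch at 128 to 134 kb (181556001 to 181562000, 6 kb) took 4 loops, each from a different bin of the SOX2 stretch. Loops thus started from several adjacent bins at SOX2 and met in the same few stretches, each loop with 1 contact.

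Some stretches rich in loops had few loops to SOX2 or none. The counts are small, and whether the share of loops to SOX2 differed between stretches was not tested. The stretch at 138 to 144 kb (181566001 to 181572000) had 19 loops to 16 stretches, and 2 of these came from SOX2. The stretch at 264 to 268 kb had 10 loops to 9 stretches and none to SOX2, where a count of 0 allows up to 3. The stretch of 8 kb that ends 4 kb before the bin of the 5′ end (181416001 to 181424000) had 12 loops to 8 stretches, of which 2 ended in the SOX2 stretch. The list holds no loop shorter than 10 kb, so the nearest bins of these neighbouring stretches could not be joined in it.

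The downstream stretches were joined to each other as well. Between the 16 stretches from 26 to 282 kb there were 50 loops, and 35 of their 120 pairs (29.2%) were joined. No such share was computed for other stretches, and these were chosen after the loops had been seen. The 29.2% therefore has no comparison. With 1 further loop inside a stretch, the loops with both ends in these stretches had 59 contacts. The window as a whole was connected, as 30 of its 32 stretches formed a single network and the remaining pair was joined only to each other.

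Loops with 2 or more contacts numbered 8 of the 164, namely 4.88% (2.49 to 9.33%), against 3.36% in the whole list, a share that lies within this interval. Of these, 7 had both ends between 26 and 282 kb downstream of SOX2, with spans of 20 to 78 kb, and the other was the promoter loop of 532 kb. The loop with the most contacts, 3, joined the bins 148 and 168 kb downstream. The others with 2 contacts joined 128 with 160 kb, 140 with 218 kb, 160 with 206 kb, 176 with 244 kb, 202 with 266 kb and 234 with 266 kb. As a share, 1 of the 20 loops of the promoter (5.0%, 0.888 to 23.6%) and 7 of the 111 loops wholly downstream of it (6.31%, 3.09 to 12.4%) had 2 or more contacts, and these intervals overlapped.

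Single anchors showed the same layout. The window had 80 anchors, 63 of them above the promoter bins and 15 below the bin of the 5′ end. Of these 80, 23.8% had a single loop, compared with 59.2% of all anchors. Anchors with 6 or more loops numbered 14 of 80 (17.5%, 10.7 to 27.3%), while 3.05% of the anchors of the list had as many. The most connected were at 176 kb with 13 loops and at 140 kb with 12, ahead of the promoter bins with 10 each. Of the 14, 4 lay in the SOX2 stretch and 10 downstream of it, at 72, 128, 140, 168, 176, 196, 202, 206, 244 and 266 kb.

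Along the window, the loop ends were concentrated in the 300 kb that follow the 5′ end. Of the 279 loop ends in the window, 20.4% lay from 0 to 100 kb, where the promoter itself is, 34.4% from 100 to 200 kb and 22.2% between 200 and 300 kb, whereas the 100 kb after it held 3.94%. On the upstream side, 8.24% lay within 100 kb and 1.43% from 100 to 300 kb. Between 300 and 600 kb upstream there was a single anchor, with 1 loop.

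**Figure D2:**
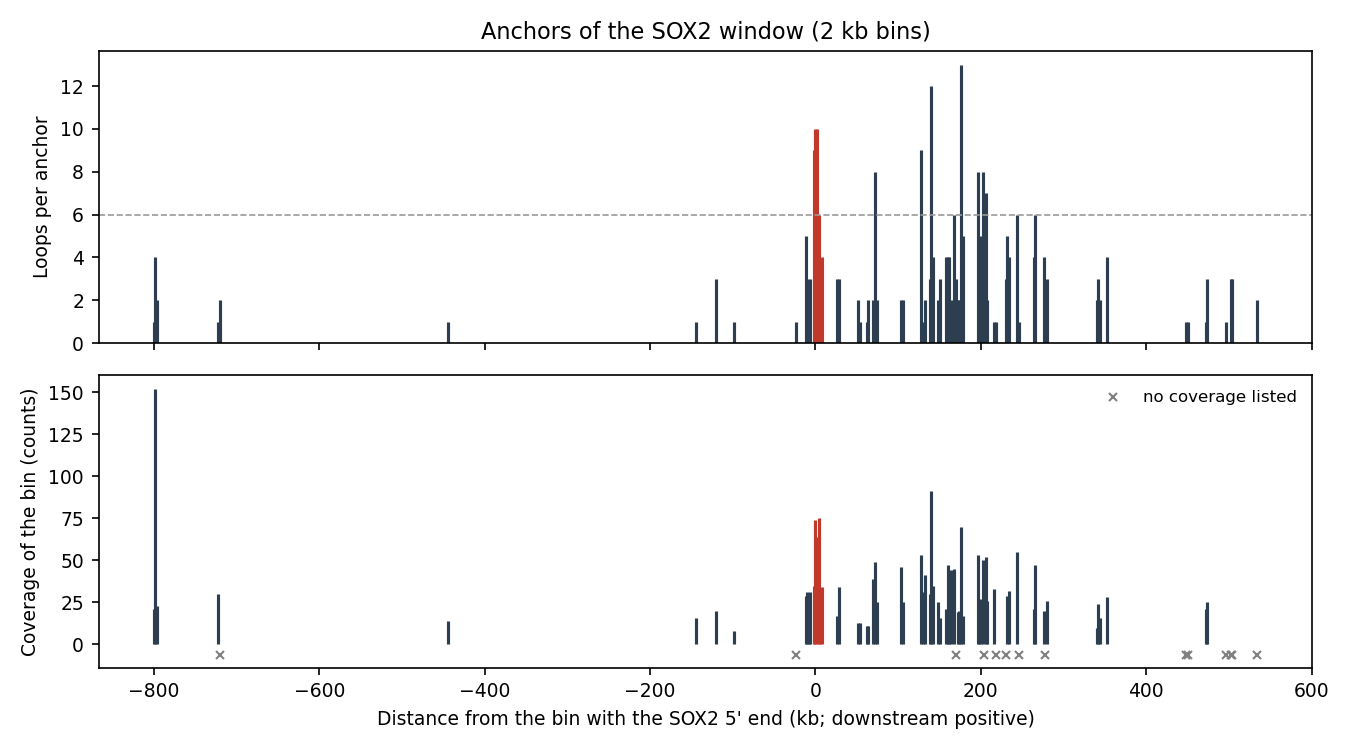
Loops (upper panel) and coverage in counts (lower panel) of each of the 80 anchors of the window against the distance from the bin with the SOX2 5′ end (kb). Red marks the stretch at SOX2, the dashed line marks 6 loops, and crosses mark anchors for which no coverage is listed. The anchors at 140 and 176 kb have more loops than those at SOX2, and the highest coverage lies 798 kb upstream.

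Relative to the promoter, 111 loops (67.7%) lay wholly downstream, 9 (5.49%) wholly upstream, 20 (12.2%) ended at it and 24 (14.6%, 10.0 to 20.9%) passed over it. The promoter here means only its bins as defined above. Loops from the other bins of the SOX2 stretch count as upstream, passing over or downstream. Thus, 42 loops ended in the whole stretch but 20 at the promoter. Loops wholly downstream had a median span of 106 kb and held 7 of the 8 loops with 2 or more contacts. Loops that passed over the promoter had a median span of 255 kb and all had 1 contact, and 0 of 24 allows a share of up to 12.5% with more. The 9 upstream loops had a median span of 678 kb.

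The bins at SOX2 had high coverage. The second count of each loop was read as the coverage of its first bin, which is always the lower one, so 66 of the 80 anchors have a value. The coverage was 35 in the bin before the promoter, 74 in the bin of the 5′ end, 64 in the bin after it and 75 in the bin of the 3′ end. Only 1.24% of the 21636 first bins of the list had 74 or more. In the window, 3 bins exceeded the bin of the 5′ end, namely the bin of the 3′ end, the bin at 140 kb with 91 and a bin 798 kb upstream with 152.

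Coverage and loops did not always go together. The bin with 152 (180630001 to 180632000) had 4 loops, whereas the bin at 176 kb had 13 loops with a coverage of 70. Over the 66 anchors, loops and coverage had a Pearson correlation of 0.61 and a Spearman correlation of 0.66, and over all 21636 anchors with a coverage the Spearman correlation was 0.47. These are descriptions, because neighbouring anchors share loops, and both counts come from the same read pairs.

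Next, the locus was compared with windows of the same size on either side. The upstream flank, from 179000001 to 180500000, had 15 loops (8.40 to 24.7) with 15 contacts. The downstream flank, from 182000001 to 183500000, had 120 loops (99.5 to 143), against 164 (140 to 191) at SOX2. The windows are not independent, as 31 loops joined the SOX2 window with the downstream flank and are counted in both, and 1 joined it with the upstream flank. The intervals of SOX2 and the downstream flank overlapped slightly, and that of the upstream flank lay below both. Thus, the observed count at the locus was far above that of the upstream flank and closer to that of the downstream flank. This is a description, as overlap of intervals is not a test.

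The observed share of loops that stayed inside the window was lower in both flanks, though the upstream share rests on 15 loops. No intervals were computed for these shares. Both ends lay inside the window for 115 of the 164 loops at SOX2 (70.1%), for 52 of 120 in the downstream flank (43.3%) and for 6 of 15 in the upstream flank (40.0%). The downstream flank had more anchors, 88 against 80, but 1.95 loop ends per anchor compared with 3.49 at SOX2. Anchors with 6 or more loops were 2 of 88 (2.27%, 0.625 to 7.91%) in the downstream flank, below the interval at SOX2. In the upstream flank there were 0 of 13, which allows a share of up to 23.1%. The densest anchor had 13 loops at SOX2, 6 in the downstream flank and 4 in the upstream flank.

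Further out, the locus was not alone. Among the 107 windows of chromosome 3 with a loop, in steps of 1.5 Mb from the SOX2 window, it ranked 4 by loops, 3 by loops with both ends inside, 10 by anchors and 2 by loop ends per anchor. The median window had 16 loops. Of the 20 windows within 10 steps, 3 had more loops, all on the telomeric side, with 192, 261 and 190 loops at 2, 5 and 6 steps. The window at 2 steps had as many anchors with 6 or more loops (14 of 111, 12.6%, 7.66 to 20.1%) and 72.4% of its loops inside. The windows at 5 and 6 steps had 22 and 19 such anchors and 3.46 and 4.21 loop ends per anchor. The density of loops at SOX2 was thus matched or exceeded, by one measure or another, in these 3 windows.

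**Figure D3:**
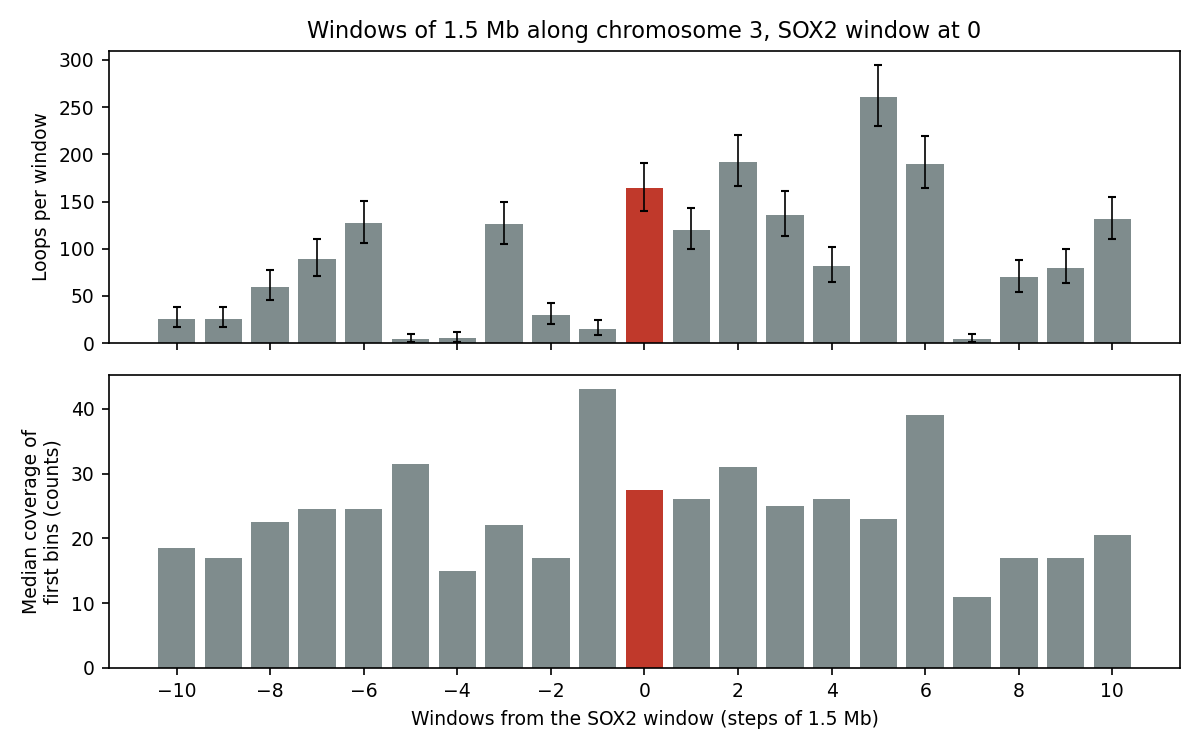
Loops per 1.5 Mb window with exact Poisson intervals (upper panel) and median coverage of the first bins in counts (lower panel), for the SOX2 window (red, at 0) and the 10 windows on each side along chromosome 3. Adjacent windows share the loops that join them. The SOX2 window has 164 loops between flanks with 15 and 120, and 3 windows to the right are higher.

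The coverage of the first bins was raised around SOX2 and not at SOX2 alone. Its median was 27.5 (interquartile range 20.2 to 43.2) over the 66 first bins of the window, 26 (18 to 30) in the downstream flank and 43 over the 7 first bins of the upstream flank. It was 19 (12 to 29) in the rest of chromosome 3 and 12 (7 to 19) on the other chromosomes. Among the 73 windows of chromosome 3 with at least 5 first bins, the SOX2 window ranked 5 by this median. The copy number of the region was not analysed here, and the part of coverage in the count of loops was not tested. Per 100 counts of coverage, first bins gave 7.11 loops in the SOX2 window, 5.54 in the downstream flank and 1.97 in the upstream flank. The value was 6.20 in the rest of chromosome 3 and 9.0 on the other chromosomes. Relative to coverage, the locus thus lay above both flanks and below the other chromosomes, without an interval for any value. Each first bin has at least 1 loop by definition, so bins of low coverage cannot give a low value.

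The loops of the locus had a median span of 190 kb (interquartile range 66.0 to 672 kb), compared with 120 kb in the whole list and 590 kb in the downstream flank. The order statistics give intervals of 132 to 246 kb for the locus, 118 to 124 kb for the list and 380 to 696 kb for the downstream flank, which do not overlap. The rest of chromosome 3 had a median of 136 kb (122 to 152 kb). The window 2 steps toward the telomere had 197 kb (122 to 240 kb). Both of these intervals overlapped that of the locus, whereas the window 2 steps the other way had 767 kb (316 to 1530 kb). Loops of 10 to 50 kb made up 21.3% (15.8 to 28.2%) at SOX2 and 31.0% in the list. Loops of 1 to 5 Mb made up 18.3% (13.1 to 24.9%) at SOX2, 27.5% (20.3 to 36.1%) in the downstream flank and 11.7% (11.3 to 12.0%) in the list. A rule that counts a loop by either end favours long loops in any window, and with both ends inside the median at SOX2 was 100 kb.

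Because most loops rest on 1 contact, the loops that had a neighbour were counted, namely another loop with both ends within 4 kb of its own. At SOX2, 52 of 164 loops had one, 31.7% (25.1 to 39.2%), against 19.9% in the whole list and 10.0% (5.81 to 16.7%) in the downstream flank. The second downstream window, from 183500001 to 185000000, had 20.8% (15.7 to 27.1%), an interval that overlapped that at SOX2. For spans of 50 to 200 kb, which include 21 of the 29 loops from the SOX2 stretch to the downstream series, the share was 47.1% (34.1 to 60.5%) at SOX2 and 19.1% (18.3 to 19.9%) in the list. In the downstream flank it was 0 of 20, which allows up to 15.0%. For spans of 10 to 50 kb the intervals overlapped, with 48.6% (33.0 to 64.4%) at SOX2, 42.1% (23.1 to 63.7%) in the downstream flank and 39.6% (38.6 to 40.5%) in the list. From 200 kb to 1 Mb the share was 22.9% (13.3 to 36.5%) compared with 6.84% (6.34 to 7.39%). Above 1 Mb, 0 of 30 loops of the locus had a neighbour, which allows up to 10.0%. Stretches with many adjacent anchors offer more places for a neighbour, and the part of this density in the share was not tested. A loop and its neighbour both count, so the loops behind each share are not independent. The intervals of these shares may therefore be too narrow.

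**Figure D4:**
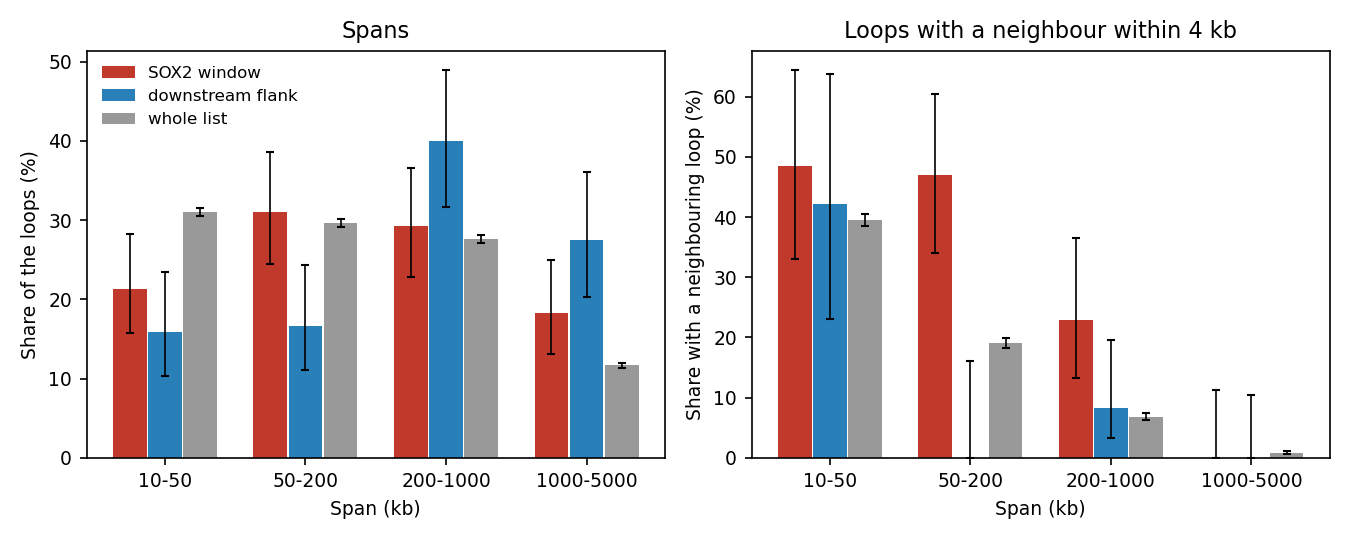
Share of loops by span in kb (left) and share of loops in each class that have another loop with both ends within 4 kb (right), in percent with 95% Wilson intervals, for the SOX2 window, the downstream flank and the whole list. At SOX2 the share with a neighbour is 47.1% from 50 to 200 kb, against 19.1% in the list.

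Loops that left the window went mainly toward the telomere. With 43 loops to higher and 6 to lower positions, they had spans of 182 to 4388 kb and of 1778 to 4596 kb, respectively. SOX2 and the series of stretches downstream of it lie nearer the upper edge of the window. From there, shorter loops can leave upward than downward, so these counts do not compare the directions at equal distance. Of the 43, 31 ended in the downstream flank and 5 started at the promoter, while 19 started 100 to 300 kb downstream of SOX2. The SOX2 stretch had 8 loops beyond the window, to 7 stretches. Of the 38 stretches reached outside the window, 7 were met by 2 or more loops. The one with the most, at 796 kb from SOX2 (182224001 to 182230000), was met by 4 loops from 3 stretches, 2 of them from the SOX2 stretch. The stretch at 654 kb (182082001 to 182086000) was met by 3 loops, 1 of them from SOX2. The stretch at 932 kb (182360001 to 182366000) was met by 3 loops, none from the SOX2 stretch.

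The anchors could not be assigned to genes other than SOX2, because the annotation used here is of another build. In its order of genes, FXR1, which encodes an RNA-binding protein, and DNAJC19, which encodes a mitochondrial cochaperone, come before SOX2-OT and SOX2. ATP11B, which encodes a phospholipid flippase subunit, is the next protein-coding gene after SOX2. SOX2-OT shares every anchor of SOX2, and its own 5′ ends were not placed, so loops of the coding and the noncoding gene cannot be told apart here. RefSeq lists 3 promoters for SOX2-OT. Of these, 1 held CCAAT, 1 TATAAA and 1 ACAAAG, and none held GGGCGG.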

How the data were processed

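H3K27ac HiChIP libraries of KYSE180 (2 libraries, 1 condition) were analysed. The authors used HiC-Pro for alignment, filtering and contact matrices. They called loops with FitHiChIP (Peak-To-All mode), and the paper describes the called loops as active and associated with p63. They then removed loops with an end without H3K27ac and deposited 1 list. Where p63 peaks lie relative to the anchors was not tested here. Versions, thresholds and the way the libraries were combined are not given in the sources used here, and the submitters' processing notes name hg19. The deposited counts of contacts and of coverage per first bin are not normalized. These columns have no header and were read from the order FitHiChIP writes and from the values, since the coverage was constant for each of 21636 first bins and contacts exceeded it in 0. The coverage added up to 368661 over these bins, and the depth of each library is unknown. As 96.6% of the listed loops have 1 contact, counting error is large for any single loop.

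The window and the position of SOX2 on hg19 were set as the rule of selection, and the members and lists were chosen with earlier results of these data known. Distances run between bin starts. Stretches are runs of touching anchors. The text was to name SOX2, SOX2-OT and, only with an annotation of the same build, further genes of 3q, which were therefore given by order alone. For the same reason the arms of chromosome 3 were not separated. No test was made, and the counting functions were tested on simulated lists. The alternatives were a minimum of 2 contacts, a minimum span of 20 kb, both ends inside the window, other promoter widths, other windows, anchors in place of loops and a wider merging of anchors. Loops were counted with pandas 2.3.3 and numpy 2.4.6 in Python 3.11.15, intervals came from scipy 1.17.1, and networkx 3.6.1 and matplotlib 3.10.9 served for networks and plots.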

Additional observations from a re-analysis of the deposited data

How the results depend on the processing

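The 7 results were recomputed 24 times in all, and 17 of the values moved by more than 1.5 times (counts and lengths) or left the counting interval (ratio and medians). With only loops of at least 2 contacts, 8 loops were left in the window, 1 at the promoter and 0 passing over it, the median span was 55.0 kb, the median coverage 51.5 and the longest stretch 2 kb. The ratio of loops to the mean of the flanks, 2.43, was then 16.0, from 8 loops against 0 and 1. It was 3.97 with both ends inside, 4.69 for windows of 0.5 Mb centred on the 5′ end, 1.58 for anchors in place of loops and 1.48 against the next windows further out. The mean hides flanks of 15 and 120 loops. The promoter had 10 loops at the bin of the 5′ end alone, 38 within 5 kb and 42 in the whole stretch of anchors, a width added after seeing the data. The median coverage was 34.0 with 1 value per loop, the median span 100 kb with both ends inside, and the longest stretch 22 kb with anchors 1 bin apart merged. A minimum span of 20 kb moved none of the 5 values it was applied to. Wider windows and merging hold more anchors by construction, and the cause of the other changes was not tested. No paired analysis was possible because the list pools the libraries of a single condition, and no replicate could be left out.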
